A study of Mus musculus with 2 samples.

Results

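The genes described here encode ATP-dependent chromatin remodellers, the subunits that work with them and the histone deacetylases found in some of the same complexes. They were taken by symbol from the RNA-seq table: names that start with Smarc, Arid, Ino80, Hdac, Mta1, Mta2, Mta3 or Mbd, or that are Chd followed by 1 digit and optionally 1 letter. The rule found 56 of the 17216 genes in the table, and 47 of them had a mean of 20 or more over the pair of libraries in the deposited values. A deposited value is (reads + 1) divided by the authors' size factor, and means are given on that scale; normalized reads leave out the added 1. Total RNA came from small intestine crypts of C57BL/6 mice, the epithelial pits that hold intestinal stem and progenitor cells. The EedKO library came from AhCreEedfl/fl mice, in which a Cre recombinase under an aryl hydrocarbon receptor responsive promoter can delete a floxed Eed gene. The WT library came from control AhCre mice, so both genotypes carried the Cre transgene. Both also received 3 injections of β-naphthoflavone, which induces the Cre, and crypts were isolated 15 days after injection. Each genotype had 1 library, and the sources used here do not give the number of animals behind a library. The comparison asks which transcripts differ between crypts of mice with floxed and with unmodified Eed, whose protein binds methylated histone H3 within Polycomb repressive complex 2 (PRC2).

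Remodellers use ATP to slide, evict or exchange nucleosomes, and they fall into the SWI/SNF (BAF), ISWI, CHD and INO80 families. BAF complexes open chromatin and are known to oppose Polycomb at many developmental genes, whereas the nucleosome remodelling and deacetylase complex (NuRD) joins a CHD ATPase to histone deacetylases and methyl-CpG-binding-domain proteins and is best known for repression. The symbol rule is wider than these complexes. It also takes in deacetylases that act elsewhere, ARID-domain DNA-binding factors, a transcribed pseudogene (Smarca5-ps) and an RNA named for the strand opposite Ino80d (Ino80dos).

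The EedKO library held 5918162 reads assigned to transcripts and the WT library 6970733. Eed (NM_021876, chromosome 7) had 183 reads in the EedKO library, against 588 in the WT library, a ratio of 0.324 after the authors' scaling (95% counting interval 0.273 to 0.384). Which part of Eed was floxed is not stated in the labels, and the reads are over the whole transcript. All 12 epithelial markers had a mean of at least 20 and none was called, with Epcam, an epithelial adhesion molecule, at 2566 EedKO reads and 2759 WT reads. Their ratios ran from 0.539 (0.499 to 0.581) for Cdx2, an intestinal identity factor, to 1.36 (1.20 to 1.53) for the stem cell marker Lgr5, with the stem cell markers Olfm4 at 0.649 and Ascl2 at 0.672. Summed normalized reads of marker genes of other cells were larger in the EedKO library for fibroblasts (733 against 286), endothelium (91.9 against 39.2), neurons and glia (188 against 111), immune cells (710 against 465) and exocrine pancreas (1944 against 152), and for 12 proliferation genes they were smaller (10520 against 14791). In whole crypts, fewer cells of a type and less RNA per cell cannot be told apart. With 1 library per genotype no difference has a replicate check. A gene was therefore called by size alone, when log2((EedKO + 1)/(WT + 1)) of the deposited values was at least 1 in size and the mean at least 20. Intervals cover counting error only: with 1 library per genotype they hold no variation between animals or preparations. Reads lacking molecular identifiers do not each stand for a separate molecule, so the intervals may also understate counting error.

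No remodeller or deacetylase gene that could be called differed by 2-fold between the libraries. Of the 47 members with a mean of at least 20, 0 were called higher in the EedKO library, where the same rule called 11.2% of all 10879 genes with that mean higher, and 0 were called lower, where it called 3.58% lower. For 41 of the 47 the whole counting interval lay between 0.5 and 2, so a 2-fold difference lay outside it. Such narrow intervals were found for 71.4% of all genes with that mean. The 6 members with wider intervals were Arid3a, Arid4b, Mta3, Smarcad1, Smarcd2 and the pseudogene Smarca5-ps. At a smaller threshold of 1.5-fold, 1 member was higher (Arid3a), beside 16.9% of all genes, and 3 were lower (Chd3, Chd1 and Arid4b), beside 13.1%. In the authors' deposited table, all 63 transcript rows of members had an adjusted p of 1, and the lowest unadjusted p among them was 0.142, for Chd3, while 0.975% of all rows in the authors' deposited table had an adjusted p below 0.05.

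The 47 members had a median log2 ratio of -0.16, with quartiles of -0.35 and 0.06, beside a median of -0.11 and quartiles of -0.39 and 0.27 over all genes with a mean of at least 20. Raising the filter to a mean of 100 left 41 members, with a median of -0.16, and 8115 genes in all, also with a median of -0.16. There 0 members were called higher, beside 5.88% of those genes, and 0 lower, beside 3.04% (8.92% in either direction). Under the authors' scaling 33 members lay below 0 and 14 above, but scaling by library totals put 23 below and 24 above. A ratio near 1 is therefore given below without a direction.

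**Figure D1:**
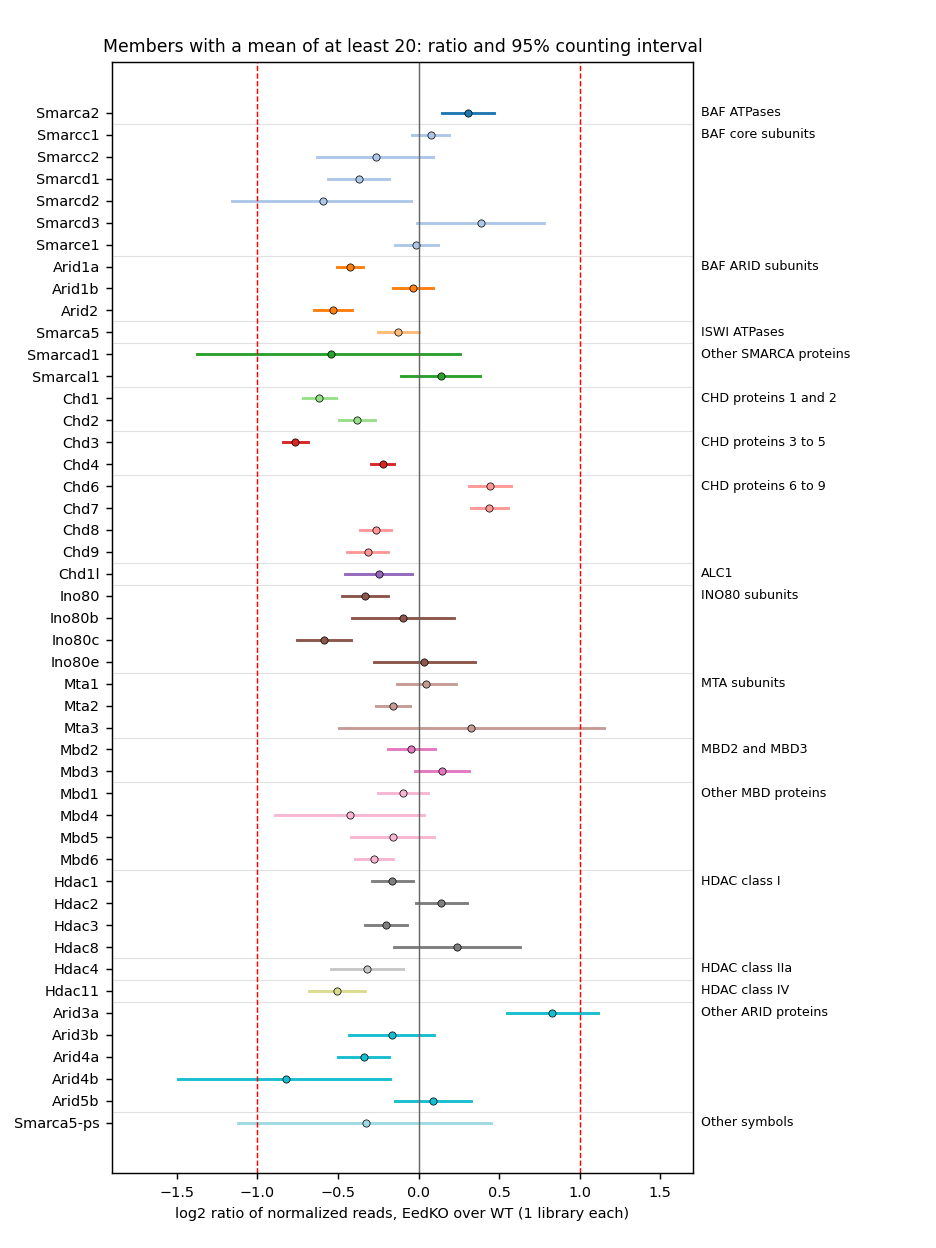
Log2 ratio of normalized reads, EedKO over WT (x axis), for the 47 members with a mean of at least 20, grouped by role down the page; points are ratios and bars are 95% counting intervals for 1 library per genotype. Dashed lines mark 2-fold, and all 47 points lie between them, from Arid4b at a ratio of 0.565 to Arid3a at 1.78.

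An exact binomial test on the reads of each member, with Benjamini-Hochberg adjustment over the 10879 genes, resolves smaller differences. It compares these 2 libraries and not the genotypes. It called 4 members higher, beside 22.6% of all genes, and 20 lower, beside 37.1%. Library-total scaling turned that balance to 12 higher and 7 lower, beside 32.6% and 22.6% of all genes, and the upper quartile gave 8 higher and 15 lower, beside 27.3% and 29%. These members held a side under all 4 scalings tried: Arid3a, Chd6, Chd7 and Smarca2 were higher in the EedKO library, and Arid1a, Arid2, Chd1, Chd2, Chd3, Hdac11 and Ino80c were lower. The 3 other scalings all shifted log2 ratios upward, by 0.09 to 0.18. The 4 higher members were thus those called under the authors' scaling, and the 7 lower those called under library totals. Holding a side under all 4 therefore adds no separate check. The share of all genes that held a side under all 4 was not computed. Under single scalings it was at least 22.6% on each side, so these members are not read as set apart from other genes.

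A BAF complex holds 1 of a pair of interchangeable ATPase motors. Smarca2 (BRM) had 713 reads in the EedKO library, against 601 in the WT library, a ratio of 1.24 (1.11 to 1.38). Smarca4 (BRG1), the other motor, had 15 EedKO reads and 13 WT reads, too few for the mean of 20, and its ratio of 1.20 had an interval of 0.534 to 2.75. Neither gene was called, and the interval of Smarca4 holds 1 and also 2-fold higher. The scaffold subunit Smarcc1 had 1220 EedKO reads and 1207 WT reads, a ratio of 1.05 (0.972 to 1.14), and the HMG-box subunit Smarce1 had 896 and 943, a ratio of 0.990 (0.903 to 1.09). Both intervals hold 1. Smarcb1 (SNF5), another core subunit, had 12 EedKO reads and 16 WT reads. Smarcc2, the second SMARCC scaffold, had 118 and 148, a ratio of 0.831 (0.647 to 1.07). Among the interchangeable SMARCD subunits, Smarcd1 had 413 EedKO reads and 557 WT reads, a ratio of 0.773 (0.679 to 0.879). Smarcd2 had 47 and 74, a ratio of 0.662 (0.449 to 0.967), and Smarcd3 had 124 and 99, a ratio of 1.31 (0.994 to 1.72). Smarcd3 thus lay on the other side of 1 from its paralogues, with an interval that just holds 1. The ARID subunits set the type of BAF complex. Arid1a, of canonical BAF, had 2161 EedKO reads and 3023 WT reads, a ratio of 0.745 (0.705 to 0.788). Its paralogue Arid1b had 1046 and 1117, a ratio of 0.976 (0.896 to 1.06). Arid2, which marks the polybromo form (PBAF), had 984 EedKO reads and 1480 WT reads, a ratio of 0.693 (0.639 to 0.752). So the 3 ARID subunits spanned log2 ratios of -0.53 to -0.03, with none past 2-fold, and the 6 core subunits with a mean of at least 20 spanned -0.57 to 0.38.

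ISWI ATPases space nucleosomes. Smarca5 (SNF2H), the widely expressed one, had 962 EedKO reads and 1094 WT reads, a ratio of 0.916, and Smarca1 (SNF2L), known best from neurons, had 23 and 11, a ratio of 2.18 (1.02 to 4.95). Smarca1 missed the call with a mean of 18.1. Its log2 ratio of the deposited values, 0.9996, was also just under 1, but it was 1.06 with 1 read step taken off, 1.03 with a pseudocount of 0.5, and from 1.09 to 1.17 under the 3 other scalings. Reads of Smarca5 and of its pseudogene Smarca5-ps (26 EedKO reads and 34 WT reads) may be split between near-identical copies and are uncertain. Relatives outside the large complexes were Smarcal1, an annealing helicase of stalled replication forks, with a ratio of 1.10 (0.928 to 1.30), and Smarcad1, with 0.685 (0.386 to 1.19), both with intervals that hold 1.

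CHD ATPases, motors that carry paired chromodomains, lay on both sides of equality. Chd3, one of the NuRD motors, had 2174 reads in the EedKO library, against 3849 in the WT library, a ratio of 0.589 (0.558 to 0.621). Chd4, the other NuRD motor, had 2912 EedKO reads and 3542 WT reads, a ratio of 0.857 (0.816 to 0.900). Both intervals lay below 1 under the authors' scaling, and Chd3 had the lowest ratio of any member with a mean of at least 100. Chd1, which travels with transcribed genes, had 1288 EedKO reads and 2058 WT reads, a ratio of 0.652 (0.608 to 0.700), and its relative Chd2 had a ratio of 0.766 (0.709 to 0.828). In the third CHD subfamily the members parted. Chd6 had 1099 EedKO reads and 842 WT reads, a ratio of 1.36 (1.24 to 1.49), and Chd7, the gene of human CHARGE syndrome, had 1429 and 1098, a ratio of 1.36 (1.25 to 1.47). Chd8, a β-catenin-binding member, had 1515 EedKO reads and 1900 WT reads, a ratio of 0.831 (0.776 to 0.890), and Chd9 had a ratio of 0.803 (0.735 to 0.877). Under the authors' scaling Chd6 and Chd7 thus lay above 1 and Chd8 and Chd9 below it. With library totals the log2 ratios of Chd8 and Chd9 were -0.09 and -0.14, and the binomial test called neither. Chd1l (ALC1), a related ATPase that lacks chromodomains and is activated by poly(ADP-ribose), had a ratio of 0.842 (0.730 to 0.972).

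INO80 subunits were measured for the ATPase Ino80 and 4 partners with the same prefix. Ino80 itself had 721 EedKO reads and 947 WT reads, a ratio of 0.793 (0.719 to 0.875), and Ino80c had 484 and 757, a ratio of 0.666 (0.593 to 0.748). Ino80b and Ino80e had ratios of 0.937 (0.752 to 1.17) and 1.02 (0.824 to 1.27), with intervals that hold 1. Ino80d had 3 EedKO reads and 6 WT reads, and Ino80dos had 10 and 14. The labels do not say whether the counting used strand, so reads of these last genes cannot be told apart where they overlap.

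The remaining NuRD subunits lay close to equality. Mta2, an MTA scaffold subunit, had 1392 EedKO reads and 1619 WT reads, a ratio of 0.896 (0.834 to 0.963), and Mta1 had 489 and 493, a ratio of 1.03 (0.910 to 1.17). Mta3 was counted less, with 30 EedKO reads and 25 WT reads and a ratio of 1.25 (0.711 to 2.22). Mbd2, which binds methylated CpG and recruits NuRD, had 730 EedKO reads and 785 WT reads, a ratio of 0.969 (0.875 to 1.07). Mbd3, which replaces Mbd2 in other NuRD complexes, had 606 and 572, a ratio of 1.10 (0.983 to 1.24). Hdac1, a catalytic subunit of NuRD, SIN3 and CoREST complexes, had 967 EedKO reads and 1128 WT reads, a ratio of 0.893 (0.819 to 0.974), and its close paralogue Hdac2 had 681 and 644, a ratio of 1.10 (0.988 to 1.23). Leaving out the sparse Mta3, these ratios ran from 0.893 to 1.10. Other methyl-CpG-binding-domain genes were Mbd1 with a ratio of 0.935 (0.841 to 1.04), Mbd4, a DNA glycosylase gene, with 0.744 (0.540 to 1.02), Mbd5 with 0.894 (0.748 to 1.07) and Mbd6 with 0.825 (0.760 to 0.895).

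Deacetylases outside NuRD were uneven in how well they were measured. Hdac3, the enzyme of the NCoR and SMRT corepressors with a known role in the intestinal epithelium, had 891 EedKO reads and 1069 WT reads, a ratio of 0.869 (0.794 to 0.950), and the class I enzyme Hdac8 had 121 and 107, a ratio of 1.18 (0.901 to 1.54). Hdac11, the class IV enzyme, had 456 EedKO reads and 675 WT reads, a ratio of 0.704 (0.624 to 0.794). The class IIa enzyme Hdac4 had 294 and 382, a ratio of 0.802 (0.687 to 0.936). Hdac5, another class IIa enzyme, had 28 EedKO reads and 8 WT reads, a ratio of 3.65 (1.62 to 9.26), the highest of any member with reads in both libraries. Its mean of 19.2 fell just short of 20, so it was not called, although genes with a mean from 10 to below 20 passed 2-fold higher in 28.2% of cases. Hdac6, a tubulin deacetylase, had 2 reads in each library, and Hdac7 had 1 EedKO read and 0 WT reads, which allows no ratio.

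Among members with a mean of at least 20, ARID-domain factors outside BAF held both ends of the range. Arid3a (Bright), a DNA-binding factor, had 283 reads in the EedKO library, against 166 in the WT library, a ratio of 1.78 (1.46 to 2.17). Its relative Arid3b had 224 EedKO reads and 262 WT reads, a ratio of 0.891 (0.742 to 1.07). Arid4b, a SIN3 complex subunit, had 32 and 59, a ratio of 0.565 (0.356 to 0.884), and its partner Arid4a had 582 and 768, a ratio of 0.790 (0.708 to 0.881). Arid5b had 296 EedKO reads and 290 WT reads, a ratio of 1.06, and Arid3c had 1 EedKO read and 0 WT reads. Arid3a was the member nearest to the 2-fold limit among those with a mean of at least 100.

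**Figure D2:**
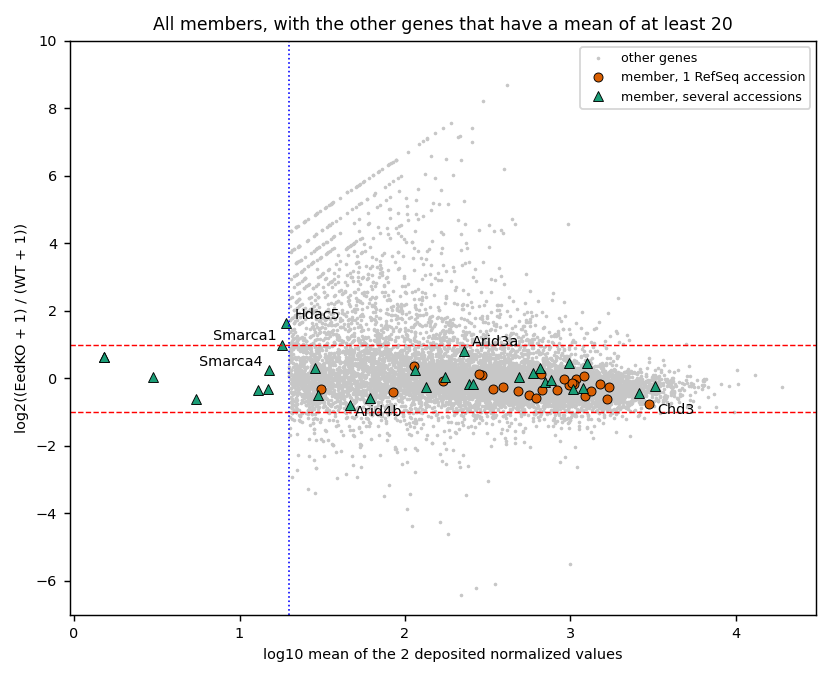
Log2((EedKO + 1)/(WT + 1)) against the log10 mean of both deposited normalized values for all 56 members (circles: 1 RefSeq accession; triangles: several) and, in grey, the other genes with a mean of at least 20 (right of the dotted line). Dashed lines mark 2-fold; the members right of the dotted line all lie between them, and Hdac5, left of it, lies above.

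How well a member was measured went with how many curated RefSeq accessions its gene has. All 26 members with 1 accession had a mean of at least 20, whereas 9 of the 30 with several accessions did not: Smarca4, Smarca1, Smarcb1, Hdac5, Hdac6, Hdac7, Ino80d, Ino80dos and Arid3c. Per kilobase of transcript, the median of the mean deposited value was 155 for members with 1 accession and 37.7 for those with several. Over all genes the shares with a mean under 20 were 39.3% with several accessions and 34.9% with 1. The counting of reads shared by several transcripts is not described in the labels, and its part in these low values was not tested, so a low count of Smarca4, Smarcb1 or Hdac6 is not read as low expression. By the fold call the 26 members with 1 accession gave the same outcome as the 47. Of them 0 were called in either direction, beside 16.1% of all genes with 1 accession and a mean of at least 20. Their median log2 ratio was -0.26, beside -0.10 over those genes. Under the authors' scaling 21 lay below 0 and 5 above, which is 80.8% below, beside 58.7% of those genes. The share below 0 was 66.6% over all genes with a mean of at least 100. Library totals shift log2 ratios up by 0.18, and the 26 were not recounted under that scaling. The balance is therefore not read as particular to these members. Arid3a, Chd6, Chd7 and Smarca2, with ratios above 1, have several accessions and are not among the 26. Per kilobase, the most abundant of these 26 were Hdac1, with 484 normalized reads in the EedKO library and 542 in the WT library, then Hdac3 with 448 and 515, and Mta2 with 453 and 506.

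**Figure D3:**
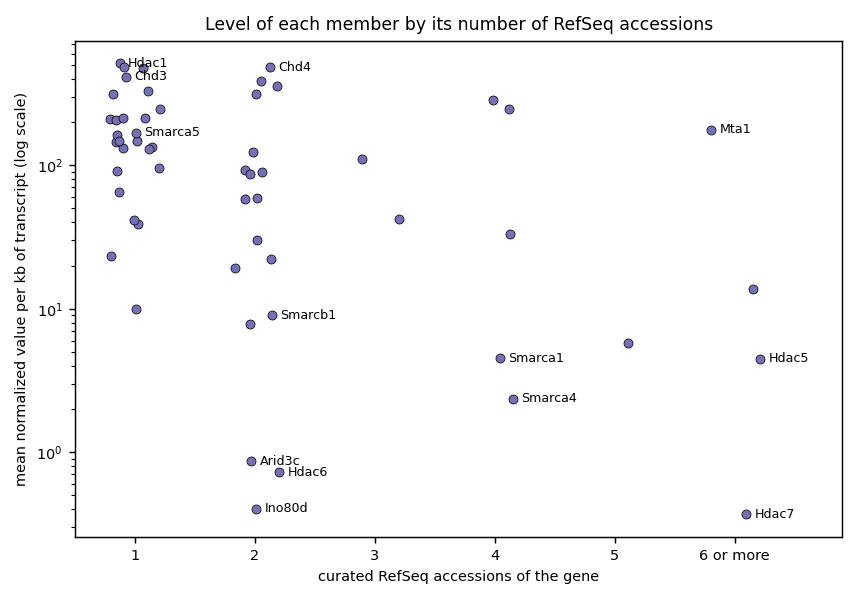
Mean deposited value per kilobase of transcript (log axis) for each of the 56 members against the number of curated RefSeq accessions of its gene, with points spread sideways for legibility. Members with 1 accession lie between 9.90 and 514, while those with several reach down to 0.371 (Hdac7).

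The promoters of 3 poorly counted members are shown because Hdac5 and Smarca1 had the highest ratios among members with reads in both libraries while Smarca4 did not, and because CpG-rich promoters are where PRC2 is known to act. Each is the RefSeq window of 300 bases, 250 before and 50 after the start site, in build GRCm38.p6, which is not the mm9 build of the reads. Capitals mark every CG dinucleotide, which reads the same on both strands. Hdac5 lies at chr11:102230123-102230422 on the minus strand, Smarca1 at chrX:47892564-47892863 on the minus strand and Smarca4 at chr9:21615919-21616218 on the plus strand.
Hdac5: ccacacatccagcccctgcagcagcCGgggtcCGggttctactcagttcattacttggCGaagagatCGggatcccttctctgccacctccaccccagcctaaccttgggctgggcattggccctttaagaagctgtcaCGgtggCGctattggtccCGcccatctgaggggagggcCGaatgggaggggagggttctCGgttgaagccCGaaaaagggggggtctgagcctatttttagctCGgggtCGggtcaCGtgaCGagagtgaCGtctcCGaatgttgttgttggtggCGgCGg
Smarca1: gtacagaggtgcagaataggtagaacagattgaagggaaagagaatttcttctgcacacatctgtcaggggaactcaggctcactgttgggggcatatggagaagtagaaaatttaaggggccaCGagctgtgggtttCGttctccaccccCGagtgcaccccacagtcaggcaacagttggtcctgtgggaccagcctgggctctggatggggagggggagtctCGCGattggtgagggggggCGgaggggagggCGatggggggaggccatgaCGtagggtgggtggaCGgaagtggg
Smarca4: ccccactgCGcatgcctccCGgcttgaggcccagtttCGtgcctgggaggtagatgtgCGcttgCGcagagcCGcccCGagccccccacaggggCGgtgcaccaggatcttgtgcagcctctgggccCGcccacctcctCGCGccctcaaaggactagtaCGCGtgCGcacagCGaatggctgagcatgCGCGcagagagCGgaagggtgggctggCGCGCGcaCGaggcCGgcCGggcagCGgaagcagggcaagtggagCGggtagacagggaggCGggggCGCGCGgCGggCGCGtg
The window of Hdac5 holds 18 CG, that of Smarca1 holds 9 and that of Smarca4 holds 33. As many CG or fewer are found in 71.9%, 56.5% and 92.3% of promoters. The most CG-rich of the 3 was thus Smarca4, whose ratio interval holds 1. A link between CG content and the ratios was not tested. Over 52 windows of the 40 members that have one, the median was 24.5 CG, beside 7 over all 32851 windows, and 94.6% of all windows hold at least 1.

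Shares of paralogues within a library do not depend on the scaling between libraries. In 5 of 13 groups of interchangeable subunits, a share differed beyond its exact 95% binomial intervals. Counting error is small at this depth. Of the 10879 genes that passed the filter on the mean, 2602 had a ratio interval above 1 and 4230 below it under the authors' scaling. Such intervals are therefore common in this pair of libraries. They are another measure than shares that do not overlap, for which no rate over other genes was computed. The 5 of 13 is thus not read as particular to these groups. Chd3 took 42.7% (41.4 to 44.1) of the reads of Chd3 and Chd4 in the EedKO library, against 52.1% (50.9 to 53.2) in the WT library. The NuRD motor with more reads was therefore Chd4 in the EedKO library and Chd3 in the WT library. Per base of transcript, Chd3 made up 40.8% of the pair in the EedKO library and 50.1% in the WT library. Hdac2 took 41.3% (38.9 to 43.7) of the reads of Hdac1 and Hdac2 in the EedKO library, against 36.3% (34.1 to 38.6) in the WT library. Arid1b took 32.6% (31.0 to 34.3) of the Arid1 reads in the EedKO library and 27.0% (25.6 to 28.4) in the WT library. In both libraries Hdac1 and Arid1a had more reads than their paralogues. Smarcd3, the SMARCD paralogue best known from heart and muscle, took 21.2% (18.0 to 24.8) of the 3 SMARCD genes in the EedKO library, against 13.6% (11.2 to 16.3) in the WT library. Hdac5 took 8.67% (5.84 to 12.3) of the reads of Hdac4, Hdac5 and Hdac7 in the EedKO library. In the WT library it took 2.05% (0.890 to 4.002), on the few reads given above. Hdac9, also of class IIa, was not analysed. Several groups join genes with 1 RefSeq accession and genes with several, such as Hdac4 with 1 and Hdac5 with 6. The effect of this on the shares was not tested, so they are shares of reads and not of expression. Intervals overlapped for Smarcc2 among SMARCC genes (8.82% in the EedKO library and 10.9% in the WT library), for Mta1 among MTA genes (25.6% and 23.1%) and for Mbd3 of Mbd2 and Mbd3 (45.4% and 42.2%).

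**Figure D4:**
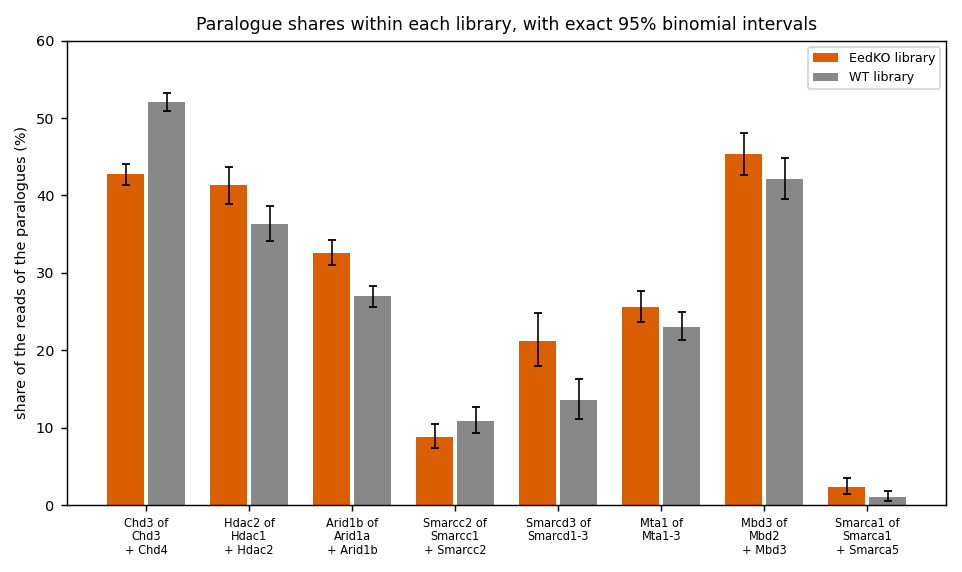
Share of a paralogue's reads among the reads of its paralogues (y axis, percent) in the EedKO library (orange, left) and the WT library (grey, right), with exact 95% binomial intervals as error bars. Chd3 is 42.7% in the EedKO library and 52.1% in the WT library, with intervals that do not overlap; those of Mbd3 do.

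The partner proteins of these complexes that the symbol rule leaves out showed the same picture with 1 exception. The listed partners Ss18 and Srcap were not analysed. Of the 89 others, 77 had a mean of at least 20. Of these, 1 was called higher, beside 11.2% of all genes with that mean, and 0 lower, beside 3.58%. The median log2 ratio of the 77 was -0.23, beside -0.11 over all genes with that mean. The exception was Cecr2 (NM_001128151, chromosome 6), a bromodomain protein that pairs with ISWI ATPases and is known for neural tube closure in mice. It had 121 reads in the EedKO library, against 9 in the WT library, a ratio of 14.0 (7.14 to 31.4). The authors' deposited table gives Cecr2 an adjusted p of 0.167. No other ISWI partner came near it: the nucleosome remodelling factor subunit Bptf had 1589 EedKO reads and 1982 WT reads, a ratio of 0.836 (0.782 to 0.893), and Baz1a, Baz1b, Baz2a, Baz2b and Rsf1 had ratios from 0.643 (Baz2b) to 0.823 (Rsf1). None of 13 BAF partners with a mean of at least 20 was called, with Bicra, of the non-canonical BAF complex, at a ratio of 0.637 (0.565 to 0.718) and Bcl7a at 1.28 (1.10 to 1.49). The neuronal BAF subunits Actl6b, with 5 EedKO reads and 1 WT read, and Dpf1, with 2 and 0, were scarcely detected.

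Among 6 NuRD partners with a mean of at least 20, the histone chaperones Rbbp4 and Rbbp7 had ratios of 0.954 (0.880 to 1.03) and 1.01 (0.936 to 1.09), and Zmynd8 had 52 EedKO reads and 107 WT reads, a ratio of 0.506 (0.356 to 0.712). Zmynd8 and, among corepressor partners, Rcor2, a CoREST scaffold with 113 EedKO reads and 60 WT reads (ratio 1.96, 1.42 to 2.73), lay just inside the 2-fold limits. For the 19 INO80, SRCAP and TIP60 partners that passed the filter, the median log2 ratio was -0.12. None was called, beside 14.8% of all genes called in either direction. The shared ATPases Ruvbl1 and Ruvbl2 had ratios of 1.08 (0.942 to 1.25) and 0.947 (0.849 to 1.06). Among 10 other SNF2 family ATPases with that mean none was called either. Atrx had 1922 EedKO reads and 2041 WT reads, a ratio of 0.981 (0.922 to 1.05), and Hells, a helicase needed for DNA methylation that is highest in dividing cells, had 483 and 694, a ratio of 0.725 (0.644 to 0.816).

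Summed levels of the fibroblast, endothelial, neuronal and glial, immune and pancreatic markers were larger in the EedKO library, the side on which Cecr2, Hdac5 and Smarca1 also lay. By the same call, 3 of 4 fibroblast markers with a mean of at least 20 were higher in the EedKO library, 1 of 1 for endothelium, 1 of 4 for neurons and glia, 2 of 5 for immune cells, 9 of 9 for exocrine pancreas and 0 of 1 for smooth muscle. The 8 fibroblast markers were uneven. The collagen genes Col1a1 (155 EedKO reads and 1 WT read), Col1a2 (124 and 0) and Col3a1 (198 and 6) were called higher, and Lum had 16 EedKO reads and 0 WT reads. Vim had 210 EedKO reads and 265 WT reads and Thy1 had 14 and 19, while Dcn (1 and 0) and Pdgfra (0 and 1), both with several accessions, were scarcely counted in either library. The glial factor Sox10 had 1 EedKO read and 0 WT reads. For the 11 proliferation genes that passed the filter, the median log2 ratio was -0.43, and none of the 11 was called. Chd1, Chd3, Arid1a, Arid2 and Hells lay on the same side, as did 59.8% of all genes with a mean of at least 20. Arid3a, Chd6, Chd7 and Smarca2 lay on the other side. The part of these cell types and of proliferation in the member and partner ratios was not tested.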

How the data were processed

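Whole-transcriptome RNA-seq of crypts was analysed from 1 library per genotype. The labels' protocols name TruSeq RNA version 2 for library making; reads were aligned with TopHat to mm9 and processed with DESeq, per the submitters' processing notes, without versions. The authors deposited normalized signal per RefSeq transcript (18766 rows), as well as their fold change (ratio), its log2 and p-values, per the file headers. Dividing by a library's lowest value gave whole numbers for 100% of values (tolerance 1e-06); these less 1 were taken as the reads, so a deposited value is (reads + 1) over a size factor. On them, an exact binomial test (Benjamini-Hochberg at 0.05) called 2464 genes higher and 4036 lower in the EedKO library.

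For a gene with several rows, the row of highest mean was used. RefSeq GRCm38.p6 matched 98.6% of rows and gave names, chromosomes and accession numbers per gene; lengths came from GENCODE vM21 transcripts (97.7% of rows). Of 64 RefSeq symbols that fit the rule, 8 were not analysed here. Ratios are EedKO over WT from reads and the authors' size factors, with exact Clopper-Pearson 95% intervals given the sum of both libraries. Log2 ratios use a pseudocount of 1, which understates differences of low genes. The members and lists were chosen with earlier results of these data known. Any member could be named, as could partners past 2-fold; other partners, those nearest the limits included, were named after their values were seen. Alternatives were other pseudocounts, 3 other scalings, other filters and thresholds, summed rows and 1 read step less. The functions were tested on simulated data. Versions were SciPy 1.17.1, pandas 2.3.3, NumPy 2.4.6, Matplotlib 3.10.9 and Python 3.11.15.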

Additional observations from a re-analysis of the deposited data

How the results depend on the processing

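The count of 0 members called higher stayed at 0 with pseudocounts of 0.5 and 10, a mean of at least 50 or 100, a 3-fold threshold, 1 read step taken off, and only the 26 members with 1 accession (the mean of 100 and the restriction to 1 accession were chosen after seeing the data). It became 1, Hdac5, under library totals, the upper quartile, the centred median, a mean of at least 10, no filter and summed rows. The count of 0 called lower held under all of these. A 1.5-fold threshold gave 1 higher and 3 lower. The exact binomial test gave 4 higher and 20 lower with the authors' scaling and, chosen after seeing the data, 12 and 7 with library totals (beside 32.6% higher and 22.6% lower over all genes) and 11 and 9 with the centred median (beside 31.8% higher and 23.5% lower over all genes). The median log2 ratio of members was 0.0126 with library totals and 0.00092 with the centred median, since these scalings shift log2 ratios by 0.18 and 0.16, and those of low genes by less because of the pseudocount. They turned the sign of 10 of 47 members each. No paired analysis was possible because each group has 1 library. Leaving out a replicate was not possible either. Depth limits what can be said of the 9 members with a mean under 20.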

Other observations

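Several members have more than 1 transcript row, and their rows can be read separately. Mta3, the least counted MTA gene, had 30 EedKO reads and 25 WT reads on NM_054082, 15 and 7 on NM_001171052, and 9 and 10 on NM_001171053, with ratios of 1.25 (0.711 to 2.22), 2.23 (0.857 to 6.47) and 0.938 (0.337 to 2.57). All 3 intervals hold 1. Smarcd2, the least counted SMARCD gene, had 47 EedKO reads and 74 WT reads on NM_001130187 and 8 and 15 on NM_031878, with ratios of 0.662 (0.449 to 0.967) and 0.556 (0.204 to 1.40). The second Hdac5 row, NM_001284249, had 6 EedKO reads and 3 WT reads, a ratio of 2.08 (0.445 to 12.9), beside 3.65 on NM_001284248.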
